A study of Mus musculus with 8 samples.

Results

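Cilia are built and maintained by intraflagellar transport, and 38 genes of this machinery were followed in lung epithelial cells of mice that had inhaled lipopolysaccharide (LPS), an outer-membrane component of Gram-negative bacteria, or vehicle alone. Members were chosen by gene symbol. They are the genes named Ift or Bbs with a number, the Ttc, Wdr, Traf3ip1 and Cluap1 genes that encode further train subunits, the kinesin-2 and dynein-2 motor genes, and Arl6. All 38 rows with such a symbol reached the minimum of 30 unique molecular identifiers (UMIs) over the libraries, out of 12661 genes that did so and 13265 in the table. They comprise 14 subunits of complex IFT-B, 7 of IFT-A, 9 genes of the BBSome with Arl6 and the chaperonin-like Bbs10 and Bbs12, 4 kinesin-2 genes and 4 dynein-2 genes.

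Intraflagellar transport carries cargo along the microtubules of the cilium in trains assembled from IFT-B and IFT-A. Kinesin-2 pulls the trains from the base to the tip and dynein-2 returns them, and the BBSome, an adapter recruited by the small GTPase ARL6, rides on the trains and removes membrane proteins from the cilium. Nearly all epithelial cells can build a single primary cilium with these proteins, whereas the multiciliated cells of the airways carry many motile cilia that sweep mucus out of the lung.

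EpCam+ CD31- CD45- cells, the epithelial fraction of the lung, were sorted from C57BL6 mice, 10000 cells per sample. They were sequenced by a bulk form of MARS-seq, which tags the 3′ end of each mRNA with a UMI. The methods state that samples of a cell type were pooled for library preparation. The PBS group (n = 5 mice) breathed aerosolized PBS and the LPS group (n = 3 mice) breathed aerosolized PBS with LPS at 0.5 mg/ml, in 30 min sessions held 3 times weekly over 10 weeks. Lungs were collected 48 h after the final one. The column names of the table mark all 8 libraries as wt, wild type. The study used female mice of 10 to 14 weeks, and of 24 months for its old mice, and does not give the age of these 8 mice separately.

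Each library held between 2232727 and 4445431 UMIs, with a median of 2690750 in PBS and 3926477 in LPS, so that a count of 3 UMIs stood for 0.667 to 1.45 CPM, counts scaled to the same library total. Libraries are named by the numbers of the table, s1, s2, s6, s11 and s16 for PBS mice and s4, s14 and s18 for LPS mice. Epcam, the epithelial sorting marker, was at 107 to 148 CPM in PBS and 107 to 137 CPM in LPS. Ptprc, which encodes the CD45 antigen excluded by the sort, was at 7.68 to 35.5 CPM in PBS and 23.1 to 37.2 CPM in LPS. Foxj1, the master transcription factor of motile cilia, was at 183 to 802 CPM in PBS and 817 to 1014 CPM in LPS, the lowest value being that of PBS library s6. Of 10 macrophage markers, 7 were called higher in LPS (1.46% of all tested genes) and 1 had a log2 fold change below 0, at -0.52. The mean log2 CPM of the list was 4.46 to 5.14 in PBS and 5.88 to 6.31 in LPS. Its share of UMIs went the other way, with 2.52 to 3.75% in PBS and 1.98 to 2.60% in LPS. C1qa, C1qb and C1qc, all called higher, were at most at 57.4 CPM in any library, while the list summed to 18937 to 39114 CPM. Other, far more abundant genes of the list therefore set the share, which says little of the 7 called. The part of macrophage RNA in the members' values was not tested. Sftpc, the surfactant gene that defines alveolar type II cells, was at 78793 to 125354 CPM in PBS and 66550 to 73863 CPM in LPS. All 6 alveolar type II markers had log2 fold changes below 0 (6678 of all 12661 tested genes), with a median of -0.32. EdgeR called 0 of these markers lower (0.569% of all tested genes) and DESeq2 called 1 (191 of all 12661 tested genes). The 6 markers made up 11.4 to 14.5% of UMIs in PBS and 9.41 to 9.83% in LPS. The part of this cell type in the members' values was not tested.

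Promoters of several members carry the motif bound by RFX transcription factors, which are known to control genes of ciliary assembly in animals. A promoter window, from 250 bases before to 50 bases after the transcription start (RefSeq, GRCm38.p6), was at hand for 33 of the 38 members, not for Ift80, Ift81, Ift122, Dync2li1 and Ttc30b. The single motif GTTGCC, on either strand, occurred in 14 of the 33 windows (42.4%), and in 15.5% of the 10081 tested genes with such a window. An inverted repeat, GTNNCC and GGNNAC with a spacer of 1 to 3 bases, occurred in 6 of the 33 (18.2%) and in 5.35% of the tested genes. A copy of the single motif can lie within the repeat, as in Bbs1, Bbs7 and Ttc26. The repeats are shown because they are the longest matches, each as 30 bases on the strand of the gene, 5′ to 3′, with the repeat and its spacer in capitals.
Bbs1, chr19:4906605-4906634 (minus strand): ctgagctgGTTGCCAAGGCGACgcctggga
Bbs4, chr9:59353464-59353493 (minus strand): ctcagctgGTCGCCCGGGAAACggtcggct
Bbs7, chr3:36613489-36613518 (minus strand): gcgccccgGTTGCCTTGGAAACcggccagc
Ttc26, chr6:38381483-38381512 (plus strand): ccggcggcGTTGCCGTGGAAACggagctcg
Wdr19, chr5:65199654-65199683 (plus strand): tttgcacgGTCTCCTGGGTGACgagaacgc

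Ift22, which encodes a small GTPase-like subunit of IFT-B, had 2 repeats in its window, and a stretch of 100 bases that spans them is shown with both in capitals.
Ift22, chr5:136908050-136908149 (plus strand): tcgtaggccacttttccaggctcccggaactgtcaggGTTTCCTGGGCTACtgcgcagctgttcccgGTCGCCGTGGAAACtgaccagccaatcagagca
Among members with the largest fold changes, the single motif (capitals, read on the strand of the gene in either orientation) was found in Ift140, Traf3ip1 and Ttc21a. Neither motif was found in the windows of Ift74 and Wdr34, whose fold changes were about as large.
Ift140, chr17:25015965-25015994 (plus strand): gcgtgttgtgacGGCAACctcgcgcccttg
Traf3ip1, chr1:91494577-91494606 (plus strand): gggcgcgcgtccGTTGCCaaggccgcgcgg
Ttc21a, chr9:119937600-119937629 (plus strand): gccagcagccagGTTGCCaaggacgcgcgc
The median log2 fold change of the 17 members with either motif was 0.58, and that of the 16 with neither was 0.43. These matches describe letters in a window, and binding was not measured.

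Across the machinery, members were mostly more abundant in LPS than in PBS, by a modest amount, and none passed the threshold of edgeR. The log2 fold change was above 0 for 35 of 38 members (92.1%, against 47.3% of all tested genes), with a median of 0.51, while the median of all tested genes was -0.02. With calls set at an adjusted p under 0.05 and a log2 fold change over 0.32 in size, edgeR called 0 members higher (1.46% of all tested genes) and 0 lower (0.569%). At an unadjusted p under 0.05, 19 members were higher (10.4% of all tested genes) and 1, Bbs10, was lower (7.64%). DESeq2 called 2 members higher, Ift140 and Bbs5 (2.91% of all tested genes), and limma-voom called 0 (1.38%). In 17 members every LPS library was above every PBS library (44.7%, against 8.52% of all tested genes), and in 1, Bbs10, every LPS library was below (5.86%). The 3 members with a log2 fold change below 0 were Ift20, Ttc21b and Bbs10. Fold changes, their errors and their order over the 38 members are plotted by complex.

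**Figure D1:**
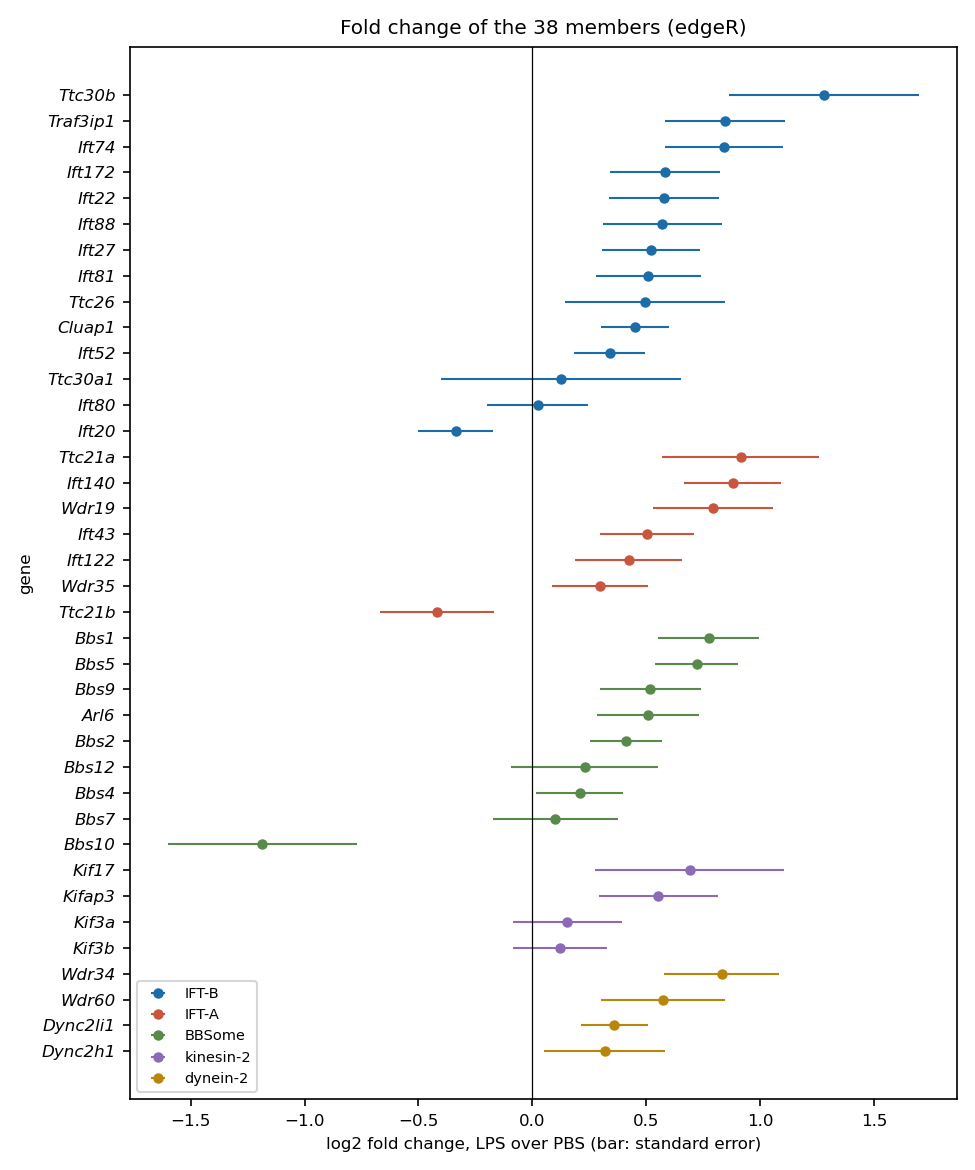
Log2 fold change of each member, LPS over PBS, with its standard error from edgeR (n = 5 PBS and 3 LPS libraries), colored by complex. Points of 35 of the 38 members lie to the right of 0, and the widest bars belong to Ttc30a1, Ttc30b, Kif17 and Bbs10.

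IFT-B, the larger train complex, had a median log2 fold change of 0.51 over its 14 members. Of these, 8 were higher at an unadjusted p under 0.05 (10.4% of all tested genes). In 7 every LPS library was above every PBS library (8.52% of all tested genes). Ift74 (chr4:94603266-94693233 on mm10) encodes a core subunit that binds tubulin together with IFT81. Its level was 45.6, 33.9, 15.5, 24.1 and 34.0 CPM in PBS libraries s1, s2, s6, s11 and s16, and 49.3, 63.7 and 53.2 CPM in LPS libraries s4, s14 and s18. The groups did not overlap, PBS s6 was lowest, and the log2 fold change was 0.84 (SE 0.26, edgeR adjusted p = 0.123). Traf3ip1 (chr1:91494590-91529307), whose product is also called IFT54, was at 114, 92.2, 39.1, 83.9 and 93.0 CPM in the PBS libraries and at 140, 188 and 129 CPM in the LPS libraries, in the same order of libraries. Here too every LPS library lay above every PBS library and s6 was far below the other PBS libraries, with a log2 fold change of 0.85 (SE 0.26, edgeR adjusted p = 0.123).

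Ift20 was the most abundant member, with a mean of 491 ± 85.3 CPM in PBS (SD, n = 5) and 389 ± 49.4 CPM in LPS (SD, n = 3), and it did not share the direction of the complex. Its product also works at the Golgi, from which it helps to send membrane proteins to the cilium. In PBS it was at 412, 413, 477, 605 and 549 CPM and in LPS at 353, 445 and 369 CPM. The groups overlapped, s6 was not the lowest library, and the log2 fold change was -0.34 (SE 0.17, edgeR adjusted p = 0.311).

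The near-identical neighbours Ttc30b and Ttc30a1, which encode the IFT70 subunit, were singled out after their values were seen, because their PBS libraries split. Ttc30b (chr2:75935849-75938462) was at 37.2, 31.3, 20.7, 10.1 and 5.26 CPM in PBS libraries s1, s2, s6, s11 and s16 and at 46.4, 58.1 and 51.6 CPM in LPS. Its log2 fold change of 1.28 was the highest of the 38 members, with an SE of 0.42 (edgeR adjusted p = 0.139). Ttc30a1 (chr2:75979106-75981967) was at 6.61, 8.06, 5.98, 2.41 and 0.404 CPM in PBS, the last from 1 UMI, and at 4.81, 4.20 and 6.67 CPM in LPS. Both were lowest in PBS libraries s11 and s16, whose mean level relative to s1 and s2 was -2.15 in log2 units for Ttc30b and -2.38 for Ttc30a1. Reads that match both copies were not counted, since the authors kept uniquely mapped reads, so the split between the copies is uncertain.

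Of the 9 other IFT-B members, 5 were higher at an unadjusted p under 0.05 (10.4% of all tested genes). They were Cluap1 (IFT38), Ift172, Ift27, Ift22 and Ift81. Every LPS library was above every PBS library in Cluap1, Ift172, Ift27 and Ift88 (8.52% of all tested genes). Cluap1 had a log2 fold change of 0.45 (SE 0.15), and Ift172, which encodes a large peripheral subunit, had 0.58 (SE 0.24). Ift88, whose hypomorphic mouse mutant has short cilia and cystic kidneys, was at 28.3 to 83.8 CPM in PBS and 87.4 to 95.1 CPM in LPS. Ift80 was at 19.5 to 39.3 CPM in PBS and 27.3 to 30.3 CPM in LPS, with a log2 fold change of 0.02 (SE 0.22), the smallest in size of the 38 members.

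The small GTPase gene Ift27, whose product links trains to BBSome exit from the cilium, was at 54.2 to 116 CPM in PBS and 128 to 157 CPM in LPS (log2 fold change 0.52, SE 0.22). Ift81, the tubulin-binding partner of Ift74, was at 29.9 to 73.1 CPM in PBS and 71.4 to 88.9 CPM in LPS, and Ift22 was at 29.1 to 68.7 CPM in PBS and 64.1 to 97.3 CPM in LPS. In both, the lowest LPS library fell just under the highest PBS library. Ift52, a core subunit, was at 34.7 to 50.6 CPM in PBS and 49.3 to 57.9 CPM in LPS. Ttc26 (IFT56) was scarcer, at 2.79 to 13.9 CPM in PBS and 10.0 to 13.7 CPM in LPS, with a log2 fold change of 0.49 (SE 0.35).

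IFT-A, which returns with dynein-2 and also brings membrane receptors into cilia, had a median log2 fold change of 0.50 over 7 members. Of these, 4 were higher at an unadjusted p under 0.05 by edgeR (10.4% of all tested genes). Ift140 (chr17:25016083-25099499), which encodes a core IFT-A subunit, had the smallest p of the 38 members. It was at 43.8, 37.4, 21.9, 32.8 and 30.3 CPM in PBS and at 50.9, 78.0 and 56 CPM in LPS. Every LPS library was above every PBS library, with a log2 fold change of 0.88 (SE 0.21). Its adjusted p was 0.0596 by edgeR and 0.0114 by DESeq2. Wdr19 (chr5:65199696-65260415), which encodes IFT144, was at 61.9, 52.9, 21.1, 53.1 and 63.1 CPM in PBS and at 77.4, 96.9 and 88.7 CPM in LPS. The low value of s6 carried much of the PBS spread, and the log2 fold change was 0.79 with all libraries (SE 0.26, edgeR adjusted p = 0.144) and 0.60 without s6 (edgeR adjusted p = 0.0497), where it was the single member called (1.76% of all tested genes).

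Ift43, a small subunit and the most abundant of IFT-A, was at 223, 163, 108, 194 and 224 CPM in PBS and at 249, 277 and 251 CPM in LPS. The groups did not overlap, and the log2 fold change was 0.50 (SE 0.21, edgeR adjusted p = 0.222). The related genes Ttc21a and Ttc21b, singled out after their values were seen, differed in sign. Ttc21b, which encodes the IFT139 subunit, was at 7.18 to 12.5 CPM in PBS and 5.95 to 8.45 CPM in LPS, with a log2 fold change of -0.42 (SE 0.25, edgeR adjusted p = 0.407). Ttc21a, a paralog known for its role in the sperm flagellum, was at 5.18 to 23.7 CPM in PBS and 23.8 to 41.6 CPM in LPS, with a log2 fold change of 0.92 (SE 0.34, edgeR adjusted p = 0.187). The ratio of Ttc21a to Ttc21b counts was 0.722 in s6, from 1.46 to 2.62 in PBS libraries other than s6, and from 2.82 to 7 in LPS. The difference between both fold changes was not tested. Ift122, a core IFT-A gene, was at 15.5 to 35.5 CPM in PBS and 34.0 to 42.7 CPM in LPS (log2 fold change 0.42, SE 0.24). Wdr35 (IFT121) was at 20.3 to 41.4 CPM in PBS and 37.4 to 49.3 CPM in LPS (log2 fold change 0.30, SE 0.21), and its groups overlapped.

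**Figure D2:**
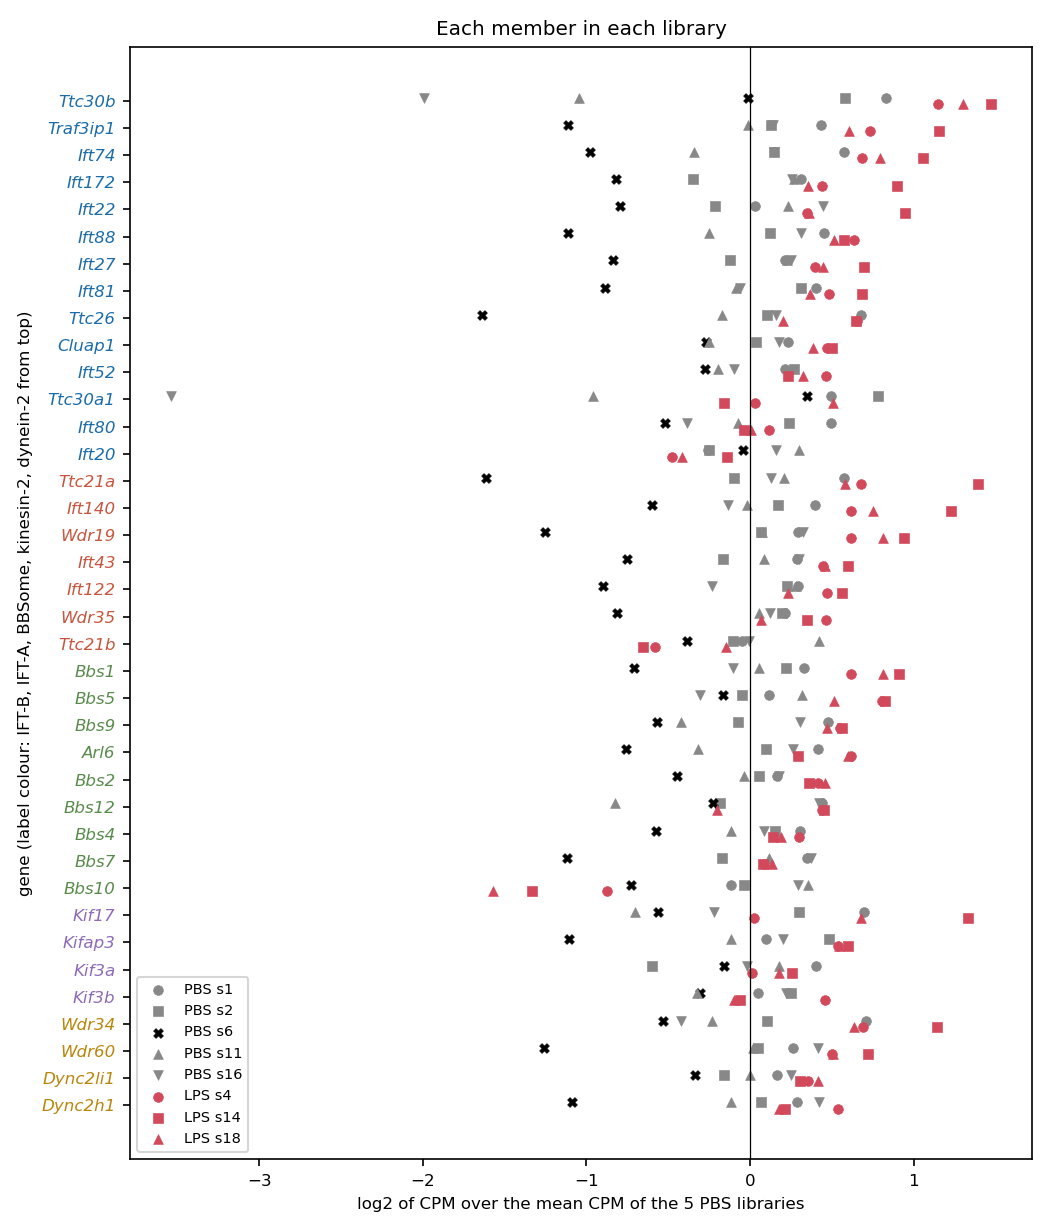
Log2 of the CPM of each member in each library over its mean CPM in the 5 PBS libraries, 1 point per library (grey and black for PBS, red for LPS), with genes grouped by complex. PBS library s6 (black) is the lowest PBS point in 30 of the 38 members, and all red points stand to the right of all PBS points in 17, Ift140, Bbs5 and Bbs1 among them.

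Genes of the BBSome, whose loss causes Bardet-Biedl syndrome in humans, with retinal degeneration and obesity, had a median log2 fold change of 0.41 over 9 members. At an unadjusted p under 0.05, 5 were higher (10.4% of all tested genes) and 1 was lower (7.64%). Bbs5 (chr2:69646848-69667571) encodes a subunit with lipid-binding domains. It was at 18.4, 16.4, 15.1, 21.2 and 13.7 CPM in PBS and at 29.8, 30.1 and 24.2 CPM in LPS. The groups did not overlap, s6 was not the lowest PBS library, and the log2 fold change was 0.72 (SE 0.18), with an adjusted p of 0.0698 by edgeR and 0.0312 by DESeq2. Bbs1 (chr19:4886878-4906653) encodes the subunit that binds ARL6. It was at 16.4, 15.2, 7.97, 13.5 and 12.1 CPM in PBS and at 19.9, 24.5 and 22.9 CPM in LPS, again without overlap (log2 fold change 0.77, SE 0.22, edgeR adjusted p = 0.102).

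Arl6, the GTPase that places the BBSome on membranes and the most abundant of the class, was at 52.9, 42.6, 23.5, 31.8 and 47.7 CPM in PBS and at 60.8, 48.6 and 60.3 CPM in LPS. LPS s14 fell within the PBS range, and the log2 fold change was 0.51 (SE 0.22, edgeR adjusted p = 0.26). The BBSome subunit gene Bbs2 was at 24.3 to 37.6 CPM in PBS and 42.7 to 45.6 CPM in LPS, without overlap (log2 fold change 0.41, SE 0.16). Bbs9, another subunit gene, was at 18.7 to 38.6 CPM in PBS and 38.5 to 40.9 CPM in LPS (log2 fold change 0.52, SE 0.22), and the groups met at their edges. Bbs4, Bbs7 and Bbs12 had 0.21, 0.10 and 0.23, with unadjusted p from 0.30 to 0.719.

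Bbs10, a chaperonin-like gene needed to assemble the BBSome and named after its values were seen, was the 1 member lower in every LPS library. It was counted 7, 8, 4, 7 and 8 times in the PBS libraries and 6, 3 and 4 times in the LPS libraries, which is 1.59 to 3.38 CPM against 0.890 to 1.44 CPM. The log2 fold change was -1.19 (SE 0.41, edgeR adjusted p = 0.16), and LPS s14 stood at the count of 3 UMIs.

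Kinesin-2 genes had a median log2 fold change of 0.35. At an unadjusted p under 0.05, 0 of 4 were higher (10.4% of all tested genes) and 0 were lower (7.64%). Kifap3, the non-motor subunit that joins KIF3A and KIF3B to their cargo, was at 23.0, 30.0, 9.97, 19.8 and 24.7 CPM in PBS and at 31.2, 32.5 and 31.4 CPM in LPS. The LPS libraries were close together and just above the highest PBS library (log2 fold change 0.55, SE 0.26, edgeR adjusted p = 0.29). Kif17, a homodimeric kinesin-2, was at 3.83, 2.90, 1.59, 1.45 and 2.02 CPM in PBS and at 2.40, 5.95 and 3.78 CPM in LPS, with overlap (log2 fold change 0.69, SE 0.42, edgeR adjusted p = 0.41). The motor subunits Kif3a and Kif3b had log2 fold changes of 0.15 (SE 0.24) and 0.12 (SE 0.21), and the LPS libraries of Kif3a, at 10.3 to 12.2 CPM, lay inside the PBS range of 6.77 to 13.6 CPM.

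Dynein-2 genes had a median log2 fold change of 0.47, and 2 of 4 were higher at an unadjusted p under 0.05 (10.4% of all tested genes). Wdr34 (chr2:30031551-30048879), an intermediate chain, was at 103, 67.4, 43.5, 53.5 and 46.9 CPM in PBS and at 101, 139 and 97.6 CPM in LPS. PBS s1 overlapped the LPS libraries and the other 4 PBS libraries did not (log2 fold change 0.83, SE 0.25, edgeR adjusted p = 0.119). Dync2li1, the light intermediate chain and the most abundant of the class, was at 120, 96.1, 84.9, 107 and 128 CPM in PBS and at 137, 133 and 143 CPM in LPS, without overlap (log2 fold change 0.36, SE 0.15, edgeR adjusted p = 0.22). The heavy chain gene Dync2h1 had a log2 fold change of 0.32 (SE 0.26) and the intermediate chain gene Wdr60 had 0.57 (SE 0.27). Wdr60 was at 8.37 to 26.7 CPM in PBS and 28.4 to 32.9 CPM in LPS, with s6 far below, and Dync2h1 was at 12.8 to 36.4 CPM in PBS and 30.7 to 39.4 CPM in LPS.

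Single libraries weighed on these values. PBS library s6 was the lowest PBS library in 30 of 38 members (78.9%, against 27.1% of all tested genes), and LPS library s14 was the highest LPS library in 23 (60.5%, against 35.7%). Without s6 the median log2 fold change was 0.37 and 33 of 38 members were above 0. Without s1 edgeR called 3 members (2.08% of all tested genes), namely Ift140 at 1.00 (edgeR adjusted p = 0.0343), Ift74 at 1.03 (edgeR adjusted p = 0.0499) and Wdr34 at 1.08 (edgeR adjusted p = 0.0186). In fits added after the data were seen, leaving out s1 and s2 gave 5 calls (Bbs1, Ift140, Ift74, Ttc30b and Wdr34, 4.31% of all tested genes), and leaving out s6, s11 and s16 gave 0 calls (1.03% of all tested genes), with a median of 0.29 over the 37 members fitted.

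The mean log2 CPM of the 38 members was 4.78 ± 0.36 in PBS (SD, n = 5) and 5.27 ± 0.09 in LPS (SD, n = 3). PBS library s6 stood at 4.20, its 4 fellow libraries lay at 4.77 to 5.16, and the LPS range of 5.19 to 5.37 began just above them. As a share of all UMIs the members made up 0.129 to 0.235% in PBS and 0.236 to 0.286% in LPS, so that the highest PBS library and the lowest LPS library were almost level.

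**Figure D3:**
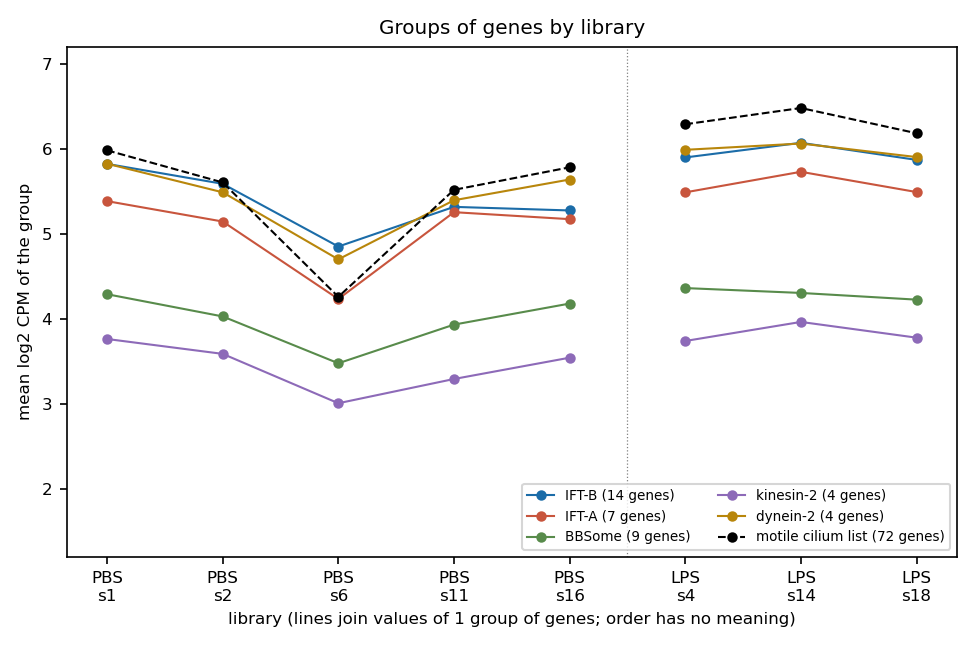
Mean log2 CPM of each complex and of the motile cilium list in each library, PBS and LPS. Library s6 is the lowest in every complex, and the motile cilium list spans 4.26 to 6.48. The mean of all members, which is not drawn, spans 4.20 to 5.37.

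The mean of the members and the mean over genes of the motile cilium were both lowest in s6 and higher in each LPS library than in each PBS library. Single members departed from this, among them Ift20, Ttc21b and Bbs10, whose log2 fold changes were below 0. A list of 72 tested genes covered axonemal dyneins, radial spokes and other parts of motile cilia, which are made by multiciliated cells. This list had log2 fold changes above 0 in 72 of 72 (47.3% of all tested genes), with a median of 0.79. Its mean log2 CPM was 5.98, 5.61, 4.26, 5.52 and 5.78 in PBS libraries s1, s2, s6, s11 and s16, and 6.29, 6.48 and 6.18 in LPS. Library s6 was again far below the others, being the lowest PBS library in 69 of the 72 genes (27.1% of all tested genes). Over 10 markers of ciliated cells, such as Tppp3 and Dnaic1, the mean log2 CPM was 5.44 to 6.97 in PBS and 7.2 to 7.53 in LPS, and the part of ciliated cell number in the members' values was not tested. In bulk libraries, fewer multiciliated cells and less RNA per such cell cannot be told apart. The member mean minus the list mean was -0.06 in s6, from -0.93 to -0.69 in PBS libraries other than s6, and from -1.11 to -0.99 in LPS, so that the members differed between libraries less than the list did.

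When the mean of the motile cilium list entered the edgeR fit as a covariate, the median log2 fold change of the members was -0.01, with 19 of 38 above 0. In that fit 1 member was higher at an unadjusted p under 0.05 (4.07% of all tested genes) and 2 were lower (5.67%). The higher one was Bbs5 at 0.61 (unadjusted p = 0.0316), and the lower ones were Bbs7 at -0.55 and Bbs10 at -1.56. The list mean was higher in each LPS library than in each PBS library, so the covariate and the group were largely confounded in this fit. In it edgeR called 0 members higher (0.0553% of all tested genes) and 0 lower (0.0395%).

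**Figure D4:**
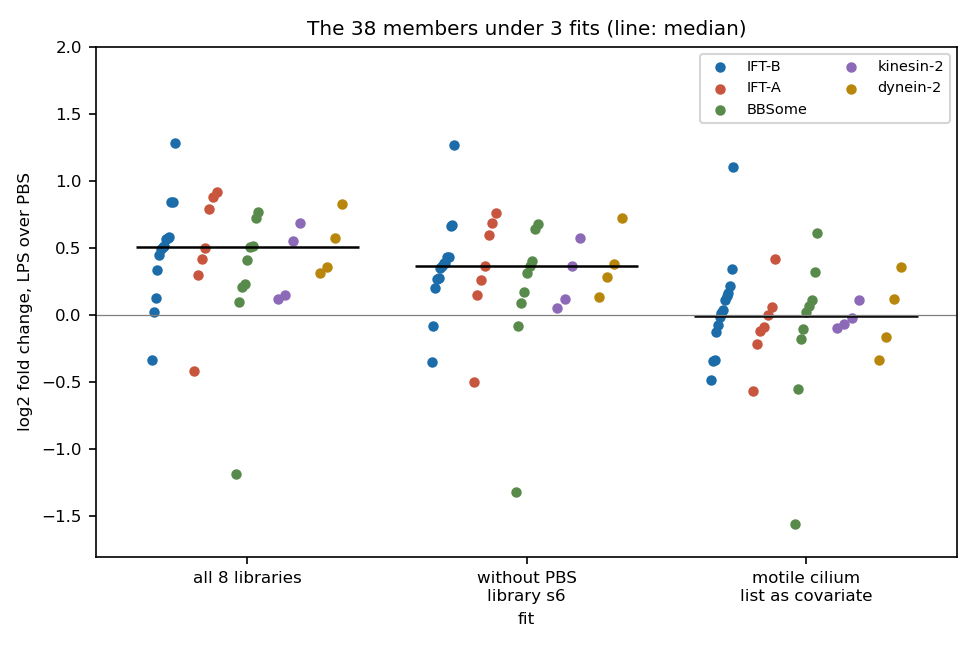
Log2 fold change of the 38 members, LPS over PBS, in the fit with all libraries, without PBS library s6, and with the motile cilium list as covariate, with the median of each fit as a line. The median is 0.51, 0.37 and -0.01.

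Lists of transition zone, adapter, other subunit and hedgehog genes had smaller medians than the 38 members together (0.51), and single genes within them varied. A list of 24 tested genes of the transition zone, the gate at the base of the cilium, was above 0 in 20 (47.3% of all tested genes). Its median log2 fold change was 0.35, with 0 called by edgeR and 1 called higher by DESeq2 (2.91% of all tested genes). In edgeR 10 of the list were higher at an unadjusted p under 0.05 (10.4% of all tested genes). Its smallest p belonged to Tctn2 (0.69, SE 0.19), B9d2 (0.54, SE 0.17) and Tmem67 (0.89, SE 0.29), all of which lie in the gate. Among 28 cargo adapters and regulators of transport, 21 were above 0 (47.3% of all tested genes), with a median of 0.22. EdgeR called 0 and DESeq2 called 2 higher (2.91% of all tested genes), and 8 were higher at an unadjusted p under 0.05 by edgeR (10.4%). The kinase gene Mok was at 83.8, 61.9, 27.9, 56.4 and 42.0 CPM in PBS and at 110, 133 and 112 CPM in LPS (log2 fold change 1.11, SE 0.26, edgeR adjusted p = 0.0535). Rabl2, a GTPase that starts IFT-B entry into cilia, had 0.77 (SE 0.22), and Cep83, a distal appendage gene of the basal body, had 0.63 (SE 0.22).

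Subunits of the same complexes that the symbol rule does not reach include Ttc8 (the BBS8 subunit), Mkks (a BBSome chaperonin) and the shared dynein light chain Dynlrb1. Over 10 such genes the median log2 fold change was -0.17, with 4 above 0 (47.3% of all tested genes). EdgeR called 0 of them higher (1.46% of all tested genes) and 0 lower (0.569%). Ttc8 had 0.37 (SE 0.20), Mkks -0.35 (SE 0.26) and Dynlrb1 -0.38 (SE 0.18). Hedgehog pathway genes, whose signal passes through the primary cilium, had a median of 0.10 over 11 genes. The hedgehog genes with the smallest p were Grk2 (0.42, SE 0.15), a kinase that acts on Smoothened, Gli3 (-0.68, SE 0.57), a transcription factor, and Evc2 (0.44, SE 0.37).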

How the data were processed

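The authors kept reads with 1 mapped position at the 3′ end of a RefSeq gene (mm10) and counted their UMIs, with an aligner that is not given in the sources, and the deposited counts underlie every value here. The deposited table also holds 16 columns of normalized or transformed values per library, and the authors' fold changes and p-values, none of which was used. Column names place each library in its group but not with a replicate number. Labels call the samples biological replicates.

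Genes with at least 30 UMIs were scaled by TMM and tested, LPS against PBS, with edgeR 4.0.16 (glmQLFit and glmQLFTest, R 4.3.3) and Benjamini-Hochberg adjustment over all 12661 genes, and called at an adjusted p under 0.05 with a log2 fold change over 0.32 in size. DESeq2 1.42.0 and limma 3.58.1 (voom) served as alternatives, beside other scalings, filters, left-out libraries and covariates. The SE was taken as the size of the log2 fold change over the root of the quasi-likelihood F. CPM values are TMM-scaled, and list means use log2 CPM with a prior count of 2. UMIs at 3′ ends do not scale with transcript length. For none of the 38 members did the last 1000 bases hold an exon of another gene (GENCODE M21).

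Values in every library are given for called members, in each class for the members with the smallest unadjusted p and for the most abundant one, and from other lists up to 3 genes with the smallest p are named. Members, lists and this rule were chosen with earlier results of these data known. Intervals were not computed for single counts, and UMI numbers limit precision by counting error only.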

Additional observations from a re-analysis of the deposited data

Results flagged for a closer look

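Of 45 sets of values over the 5 PBS libraries (each member, each complex and the motile cilium list), 4 had a lowest library far from the rest by Dixon's criterion, which chance meets in about 1 of 20 sets, and in each it was s6. Wdr19 was at 21.1 CPM in s6 and at 52.9 to 63.1 CPM in the other PBS libraries. Wdr35, the IFT121 subunit of IFT-A, was at 20.3 CPM against 37.1 to 41.4 CPM. The mean log2 CPM of IFT-A was 4.23 against 5.15 to 5.39, and that of the motile cilium list was 4.26 against 5.52 to 5.98. These sets share libraries and are not independent.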

How the results depend on the processing

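No paired analysis was possible because the numbers of the table's columns are in no sample label. Under 19 alternatives edgeR's 0 calls became 2 with DESeq2, 0 to 3 when each library was left out in turn, and 5 without s1 and s2, and no member was called lower. The median log2 fold change was 0.37 to 0.58 when each library was left out and -0.00598 with the motile cilium covariate. With the macrophage covariate it was 0.76, the highest of all settings. The macrophage list had a mean log2 CPM of 4.46 to 5.14 in PBS and 5.88 to 6.31 in LPS. That covariate and the group were therefore also largely confounded. The median of all tested genes stayed between -0.06 and 0.003. The cause of these shifts was not tested.

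With the motile cilium covariate 16 members turned, to -0.0167 for Ift27, -0.34 for Ift80, -0.073 for Ift81, -0.12 for Ift88, -0.48 for Ttc26, -0.12 for Ift122, -0.0898 for Ttc21a, -0.21 for Wdr35, -0.17 for Bbs4, -0.55 for Bbs7, -0.10 for Bbs12, -0.0194 for Kif3a, -0.0929 for Kif3b, -0.0659 for Kifap3, -0.33 for Dync2h1 and -0.16 for Wdr60. With the macrophage list as covariate 5 turned, to 0.23 for Ift20, -0.15 for Ift52, -0.98 for Ttc30a1, -0.81 for Kif3b and -0.27 for Kifap3, and edgeR called 0 genes in all. Without s6, s11 and s16 the values were -0.32 for Ift80, -0.45 for Ttc30a1, -0.0056 for Bbs4 and -0.0145 for Kif3b, and without s11 and s16 they were -0.11 for Ift80 and -0.38 for Ttc30a1. Leaving out each library gave ranges of -0.0821 to 0.18 for Ift80, -0.0794 to 0.21 for Bbs7, -0.16 to 0.42 for Ttc30a1 and -0.0839 to 0.217 for Kif3b.

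Counts under 10 UMIs in every library limit Bbs10, for which DESeq2 gave no adjusted p. Ttc26, Ttc30a1, Bbs12 and Kif17 also had PBS counts under 10 UMIs. Kif17 was counted 11, 9, 4, 3 and 5 times in PBS libraries s1, s2, s6, s11 and s16. The filterByExpr filter of edgeR and the fit without s6, s11 and s16 each left 1 member out.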

Other observations

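Transcription factors and regulators of multiciliated cells had log2 fold changes above 0 in 13 of 14 tested genes (47.3% of all tested genes), with a median of 0.64. Of these genes 0 were called higher by edgeR (1.46% of all tested genes) and 2 by DESeq2 (2.91%). In edgeR 7 were higher at an unadjusted p under 0.05 (10.4% of all tested genes). Myb, which acts early in multiciliated cell formation, was at 22.3, 18.1, 5.58, 9.65 and 7.28 CPM in PBS and at 27.4, 39.9 and 30.5 CPM in LPS (log2 fold change 1.34, SE 0.36, edgeR adjusted p = 0.0864). Every LPS library was above every PBS library. Ccdc78, a gene of centriole amplification, had 1.16 (SE 0.33) and Foxn4, a forkhead factor, had 1.51 (SE 0.46, edgeR adjusted p = 0.122). Foxn4 was scarce, counted 8, 3, 1, 2 and 4 times in the PBS libraries and 13, 15 and 17 times in the LPS libraries. In the motile cilium list of 72 genes edgeR called 2 higher (1.46% of all tested genes) and DESeq2 called 13 (2.91%). Those of edgeR were Cfap45 (1.07, SE 0.24, edgeR adjusted p = 0.043) and the adenylate kinase gene Ak7 (1.05, SE 0.24, edgeR adjusted p = 0.0491).

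The single motif GTTGCC and the inverted repeat were found in 45.8% and 23.7% of the 59 motile cilium genes with a promoter window, and in 50.0% and 45.0% of the 20 transition zone genes.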
